A study of Mus musculus with 6 samples.

Results

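A set of 63 mouse genes for lysosomal enzymes, lysosomal membrane proteins, the vacuolar proton pump and the transcription factors that act on them were followed in BV2 cells made to overexpress a TDP-43 construct or GFP. They are 63 of the 25032 genes with at least 1 read in the 6 libraries. The members are the protein-coding genes whose symbol is a cathepsin with a single letter (Cts), begins with Atp6v0, Atp6v1 or Atp6ap, or stands in a list of 28 lysosomal genes. By role they are 29 hydrolases (14 of them cathepsins), 2 soluble cofactors, 8 membrane proteins, 21 genes of the proton pump and 3 transcription factors. The rule uses no measured value. Gene coordinates are those of the authors' table, on GRCm39.

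BV2 is an immortalised mouse microglial cell line. The labels place 3 libraries in the TDP43-NLS group, cells overexpressing a TDP-43 whose nuclear localisation signal is described as mutated in the design text, and 3 libraries in the GFP group, cells overexpressing the fluorescent protein. Both groups were grown in the same serum-containing medium, and poly(A)-selected RNA was sequenced. The labels give neither the promoter or delivery of the construct, nor whether the cells are a clone, nor the time of expression. They also do not say whether the libraries came from separate cultures, so the p-values reflect only how these samples vary, possibly for technical reasons alone.

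Lysosomes digest protein, lipid, glycan and nucleic acid delivered by endocytosis, phagocytosis and autophagy. Their soluble hydrolases work at acid pH, which the V-ATPase maintains: its cytosolic V1 sector hydrolyses ATP and turns a rotor that drives protons through the membrane-embedded V0 sector. In microglia and other macrophages these enzymes degrade engulfed debris, and TFEB, TFE3 and MITF, related basic helix-loop-helix leucine zipper factors, bind E-box sequences in the promoters of many lysosomal genes.

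The libraries held 15062131 to 18005592 reads assigned to genes, and the biological coefficient of variation was 4.62%. GFP replicate 2 stood apart: its counts differed from GFP replicates 1 and 3 with 6.67 and 6.68 units of chi-square for each degree of freedom, against 1.18 between GFP replicates 1 and 3 and 1.79 to 2.56 between the TDP43-NLS libraries. All 6 libraries were counted as separate samples. Tardbp, the gene for TDP-43, gave 48.3, 46.3 and 48.3 FPKM in the TDP43-NLS libraries, against 60.4, 55.1 and 60.2 FPKM in the GFP libraries (log2 fold change -0.26, adjusted p = 0.000291), so the gene's total count was not higher under the TDP43-NLS label, and it is not known whether reads of the construct were counted in this row. Of 12 microglia and macrophage markers, 11 were in the table and tested, with a summed level of 646 to 666 FPKM in the TDP43-NLS libraries and 688 to 712 FPKM in the GFP libraries. Of these 11, 5 were called higher and 5 lower, with log2 fold changes from -2.27 to 1.52 and a median absolute value of 0.77. Csf1r, Spi1 and Tyrobp were abundant, while Tmem119 and P2ry12, markers of microglia in the brain, averaged 1.61 and 0.101 FPKM with TDP43-NLS, against 0.959 and 0.504 FPKM with GFP. The summed markers of each of neurons, astrocytes, oligodendrocytes, fibroblasts, endothelium and lymphocytes stayed at or under 0.734 FPKM in every library. In bulk RNA, fewer cells of a type and less RNA per cell cannot be told apart.

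Lysosomal genes moved in both directions, mostly by little, and a few fell steeply. Of the 63 genes, 58 had enough reads to be tested with edgeR's quasi-likelihood test, and 35 were called at a Benjamini-Hochberg adjusted p under 0.05, 20 higher and 15 lower in TDP43-NLS cells. That is 60.3% of the tested members, against 57.5% of all 13199 genes tested (29.3% higher, 28.2% lower), so the share called was close to the background. The median log2 fold change (TDP43-NLS over GFP) was 0.06 among members and 0.00 among all tested genes, and the median absolute log2 fold change was 0.20 among members and 0.26 among all tested genes. Of the 35 called members, 14 changed by at least 0.5 on the log2 scale, 7 higher and 7 lower, or 14 of 58, where 24.2% of all tested genes changed that far (13.9% rose, 10.4% fell). Of the 14, 3 changed by at least 1, all lower: Atp6v0d2, Ctsh and Tfeb. Of all tested genes, 9.99% changed by that much (6.33% rose, 3.67% fell). A test against a log2 fold change of 0.5 kept 7 members, 2 higher (Ctso, Ppt1) and 5 lower (Atp6v0d2, Ctsh, Tfeb, Lipa, Laptm5), where it called 14.9% of all genes (9.25% higher, 5.64% lower). Without GFP replicate 2, 21 members were called higher and 19 lower, where 61.3% of all tested genes were called (31.3% higher, 30.0% lower). In 22 members every TDP43-NLS library lay above every GFP library in CPM (reads scaled to library size), in 18 every TDP43-NLS library lay below, and in 18 the groups overlapped, so 40 of 58 did not overlap, where 63.2% of all tested genes did not (32.0% higher, 31.2% lower).

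**Figure D1:**
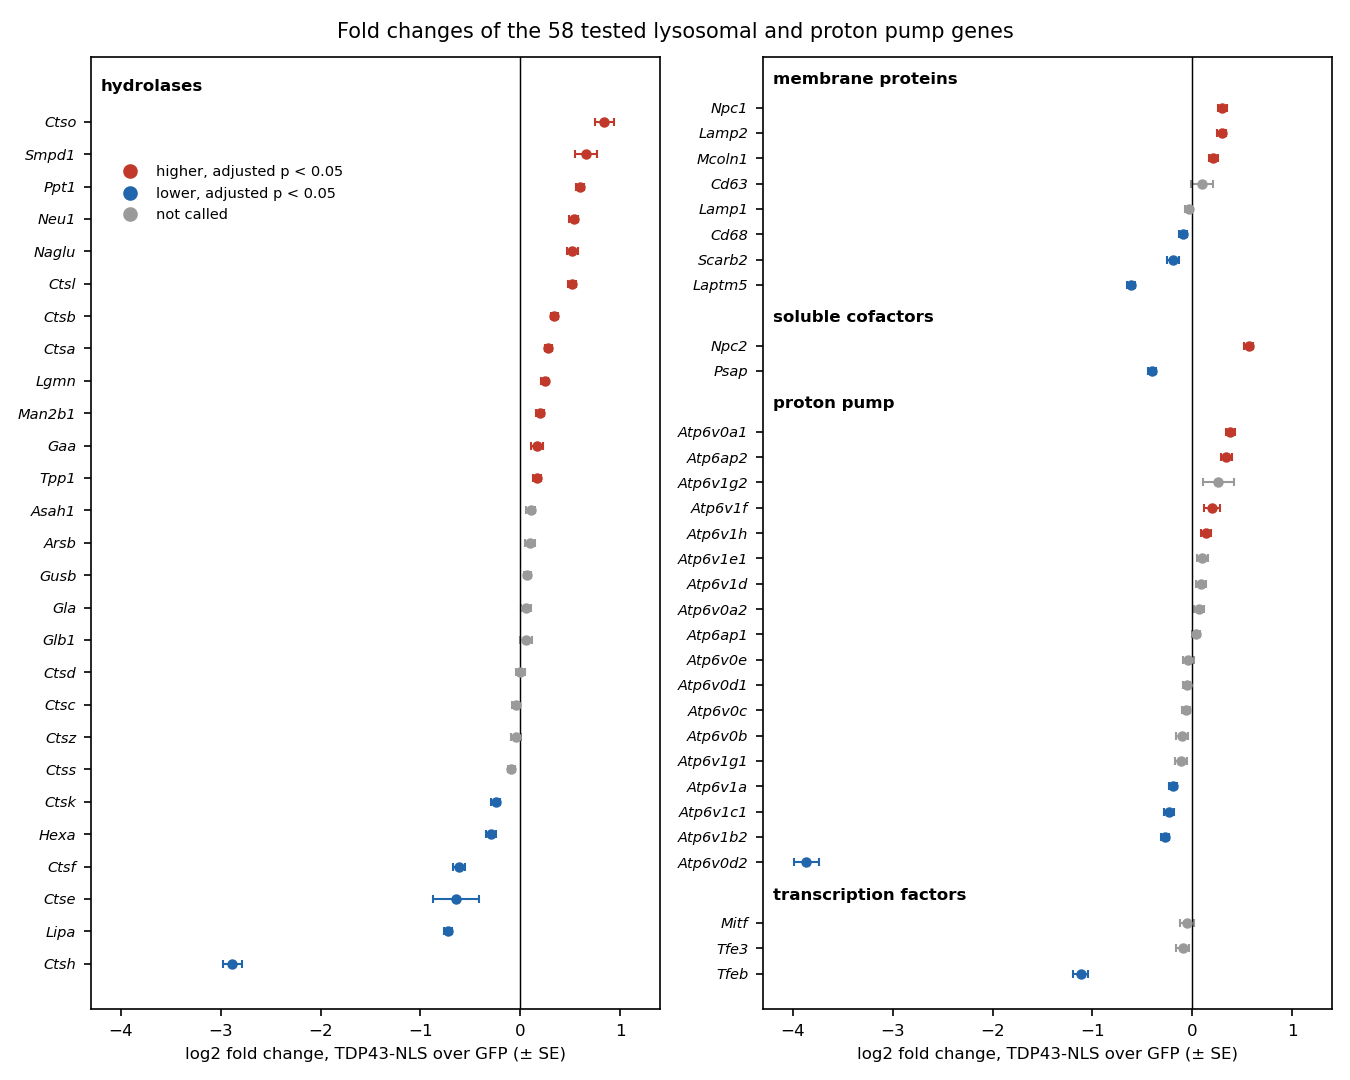
Log2 fold change (TDP43-NLS over GFP) with its standard error for the 58 tested genes, ordered within each role. Red (higher) and blue (lower) points passed the adjusted p threshold of 0.05 and grey points did not, and most points lie within 0.5 of 0 while Atp6v0d2, Ctsh and Tfeb lie below -1.

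The members were well measured. Of the 58, 45 averaged at least 10 FPKM (reads scaled to transcript length and library size), 7 were among the 100 most abundant genes, and together they took 2.73 to 2.75% of reads in the TDP43-NLS libraries and 2.67 to 2.75% in the GFP libraries. Standard errors of the log2 fold change ran from 0.04 to 0.23 with a median of 0.05. The other 5 members were near 0 and were not tested. The serine protease Ctsg, the lymphocyte cathepsin Ctsw, the pump genes Atp6v0e2 and Atp6v1c2, and Atp6v1fnb, a transcript next to Atp6v1f, had at most 11 reads in any library.

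Among the transcription factors, Tfeb fell and its relatives were not called. Tfeb (chr17:48047955-48103344, plus strand), which moves into the nucleus and activates lysosomal genes when mTORC1 is inactive, gave 383, 467 and 435 reads with TDP43-NLS, against 805, 1058 and 929 reads with GFP. Its level was 4.49, 4.58 and 4.36 FPKM in the TDP43-NLS libraries, against 9.24, 11.2 and 9.44 FPKM in the GFP libraries. Every TDP43-NLS library lay below every GFP library by a wide margin, and the log2 fold change was -1.12 ± 0.07 SE, adjusted p = 3.67e-08. Tfe3, a close relative with overlapping targets, gave 6.19, 5.58 and 5.67 FPKM in the TDP43-NLS libraries, against 6.21, 6.99 and 5.89 FPKM in the GFP libraries, and the groups overlapped (log2 fold change -0.10 ± 0.07 SE, adjusted p = 0.239). Mitf, known from melanocytes and osteoclasts, gave 3.76, 3.79 and 4.19 FPKM in the TDP43-NLS libraries, against 4.15, 4.24 and 4.11 FPKM in the GFP libraries, also overlapping (log2 fold change -0.05 ± 0.07 SE, adjusted p = 0.519). Tfeb made up 31.5% of the summed FPKM of the 3 factors in TDP43-NLS cells and 48.5% in GFP cells, and the sum was 14.2 ± 0.245 FPKM in TDP43-NLS cells and 20.5 ± 1.68 FPKM in GFP cells (SD, n = 3 each).

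E-boxes in the promoters of these genes are shown because they are the sequences that TFEB and its relatives bind. The RefSeq promoter table (GRCm38.p6, 250 bases before and 50 after each start) held 51 of the 63 members, in 62 windows. The E-box CACGTG was present in the promoters of 15 of the 51, or 29.4%, against 8.91% of all protein-coding genes with a promoter and 11.9% of those tested. The extended TCACGTGA, which contains it, was present in 7 members, or 13.7%, against 1.41% and 2.27%. The full consensus of the CLEAR element, a longer palindrome around it, was in 0 members, against 0.469% and 0.852%. These words read the same on both strands. The windows of 30 bases around the first TCACGTGA of the 7 members follow, 5′ to 3′ on the gene's strand with that word in capitals.
Atp6v0d1 (chr8:105566050-105566079, minus strand): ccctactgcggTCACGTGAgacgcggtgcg
Atp6v0e (chr17:26676387-26676416, plus strand): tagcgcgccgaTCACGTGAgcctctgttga
Atp6v1a (chr16:44139373-44139402, minus strand): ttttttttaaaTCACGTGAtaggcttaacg
Ctsa (chr2:164833749-164833778, plus strand): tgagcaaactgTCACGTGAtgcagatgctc
Ctsd (chr7:142387908-142387937, minus strand): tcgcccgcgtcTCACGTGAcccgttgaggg
Gla (chrX:134601215-134601244, minus strand): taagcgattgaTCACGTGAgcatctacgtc
Mcoln1 (chr8:3500462-3500491, plus strand): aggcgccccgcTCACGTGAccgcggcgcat
In Lamp1 4 copies of CACGTG lay between 61 and 15 bases before the start, none with both flanking letters of the longer word. The copies are in capitals in the whole Lamp1 window of 300 bases (chr8:13158911-13159210, plus strand).
Lamp1: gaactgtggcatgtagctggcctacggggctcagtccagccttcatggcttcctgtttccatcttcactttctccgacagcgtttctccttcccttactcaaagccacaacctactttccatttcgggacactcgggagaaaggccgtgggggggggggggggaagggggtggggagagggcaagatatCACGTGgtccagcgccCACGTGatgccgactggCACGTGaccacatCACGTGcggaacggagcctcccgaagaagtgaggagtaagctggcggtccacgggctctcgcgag
The 7 members with TCACGTGA had log2 fold changes between -0.19 and 0.28 with a median of 0.00. Of them, Ctsa and Mcoln1 rose and Atp6v1a fell. The 40 tested members whose promoter windows lacked it had a median of 0.08, with 15 higher and 9 lower. Tested members without a promoter window, Atp6v0d2 and Ctsh among them, are in neither group. With the shorter CACGTG, 6 of 15 rose and 2 fell, with a median of 0.06. Of the 32 tested members whose windows lacked CACGTG, 11 rose and 8 fell, with a median of 0.08. Among all tested genes, 29.3% were called higher and 28.2% lower. A match describes the letters of a window and not a bound site.

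Cathepsins moved in both directions, and the ranges of their summed level overlapped. Of 14, 12 were tested, 4 rose, 4 fell and 4 were not called, or 66.7% called, against 57.5% of all tested genes (29.3% higher, 28.2% lower). The largest change was in Ctsh (chr9:89936205-89958142, plus strand), an aminopeptidase of the papain family: it gave 72, 107 and 119 reads with TDP43-NLS, against 704, 704 and 787 reads with GFP. In FPKM these were 1.06, 1.32 and 1.502 with TDP43-NLS, against 10.2, 9.39 and 10.1 with GFP, so every TDP43-NLS library was several times below every GFP library (log2 fold change -2.88 ± 0.09 SE, adjusted p = 3.8e-11). Ctsh lies on chromosome 9, where the median over 712 tested genes was -0.31, and it was at -2.57 relative to that median. Ctsf (chr19:4905158-4910946, plus strand), a cysteine cathepsin with a long cystatin-like propeptide, gave 6.56, 6.41 and 6.25 FPKM in the TDP43-NLS libraries, against 10.7, 9.36 and 10.1 FPKM in the GFP libraries, with no overlap (log2 fold change -0.61 ± 0.06 SE, adjusted p = 1.84e-06). Ctse, an aspartic protease of immune cells, was close to the limit of detection with 22, 16 and 22 reads with TDP43-NLS, against 28, 36 and 30 reads with GFP (log2 fold change -0.64 ± 0.23 SE, adjusted p = 0.0278); its call was kept in 6 of 11 alternatives and was lost with DESeq2's Wald test, with limma without a filter and when TDP43-NLS replicate 2 or 3 or GFP replicate 2 was left out, with an adjusted p between 0.0236 and 0.181 over its alternatives.

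Ctsk, the collagen-degrading cathepsin best known from osteoclasts, was the fourth to fall. It was among the 3 most abundant members of its role, with 831, 862 and 868 FPKM in the TDP43-NLS libraries, against 1085, 974 and 1052 FPKM in the GFP libraries (log2 fold change -0.24 ± 0.05 SE, adjusted p = 0.000449). Its neighbour Ctss, 17424 bases away and the cathepsin of antigen processing, gave 320.5, 328 and 326 FPKM in the TDP43-NLS libraries, against 356, 354 and 353 FPKM in the GFP libraries; the groups did not overlap, but the test missed the threshold (log2 fold change -0.09 ± 0.04 SE, adjusted p = 0.0517). Ctsz, a carboxypeptidase and the most abundant hydrolase, gave 1352, 1417 and 1330.3 FPKM in the TDP43-NLS libraries, against 1507, 1332 and 1503 FPKM in the GFP libraries, and the groups overlapped (log2 fold change -0.05 ± 0.05 SE, adjusted p = 0.453). Without GFP replicate 2, the lowest GFP library for Ctsz, its log2 fold change was -0.11 with an adjusted p of 0.00274, and that of Ctss had an adjusted p of 0.0143.

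The cathepsins that rose were Ctso, Ctsl, Ctsb and Ctsa. Ctsb (chr14:63359911-63383372, plus strand), a cysteine protease with endo- and exopeptidase activity, gave 847, 872 and 875 FPKM in the TDP43-NLS libraries, against 708, 689 and 704 FPKM in the GFP libraries, with no overlap (log2 fold change 0.34 ± 0.04 SE, adjusted p = 2.64e-06). Ctsl (chr13:64507151-64518704, minus strand), a broad endopeptidase, gave 221, 217 and 225 FPKM in the TDP43-NLS libraries, against 163, 152 and 159.9 FPKM in the GFP libraries (log2 fold change 0.52 ± 0.04 SE, adjusted p = 1.63e-07). Ctso (chr3:81839908-81864032, plus strand) was low, with 3.10, 2.79 and 2.89 FPKM in the TDP43-NLS libraries, against 1.78, 1.77 and 1.47 FPKM in the GFP libraries, from 239, 257 and 261 reads with TDP43-NLS, against 140, 151 and 131 with GFP (log2 fold change 0.84 ± 0.10 SE, adjusted p = 6.59e-06). All 3 of these genes were higher in every TDP43-NLS library than in any GFP library. Ctsa, the serine carboxypeptidase that also shields neuraminidase and beta-galactosidase, averaged 242 ± 6.26 FPKM in the TDP43-NLS libraries and 204 ± 5.80 FPKM in the GFP libraries (SD, n = 3 each; log2 fold change 0.28 ± 0.04 SE, adjusted p = 3.95e-05). Ctsd, the main aspartic protease of lysosomes, had a log2 fold change of 0.00 (adjusted p = 0.974), and Ctsc, which activates serine proteases, one of -0.04 (adjusted p = 0.362). Summed over the 14 genes, cathepsin FPKM was 4474 ± 44.1 in TDP43-NLS cells and 4530 ± 175 in GFP cells (SD, n = 3 each), and the ranges overlapped. Of the summed hydrolases, Ctsb took 15.1% in TDP43-NLS cells and 12.3% in GFP cells, and Ctsk took 14.9% in TDP43-NLS cells and 18.2% in GFP cells.

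**Figure D2:**
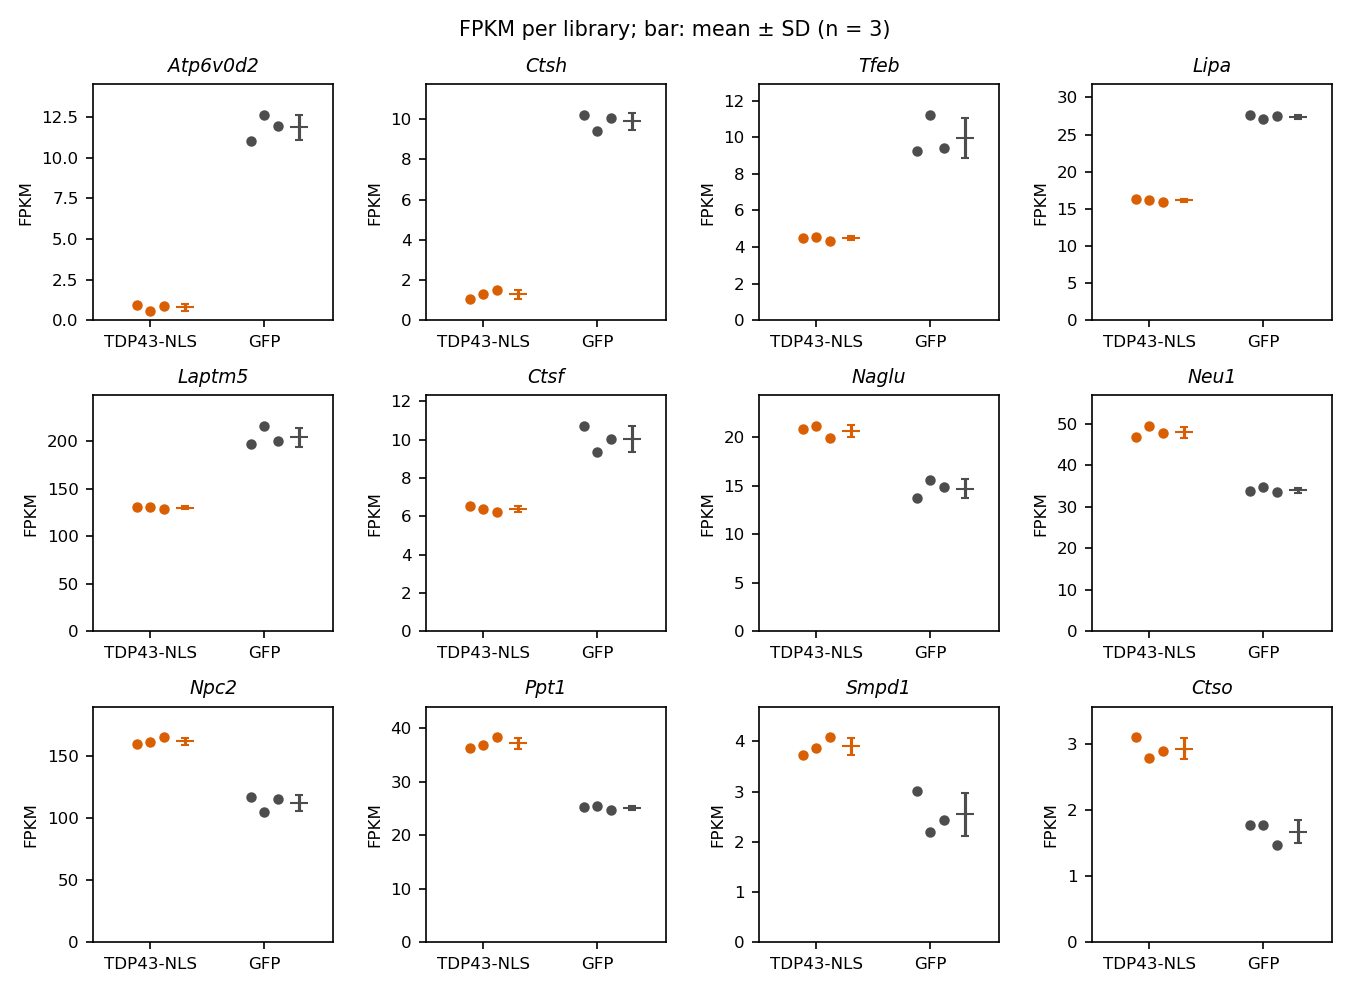
FPKM in each library for the 12 called members with the largest absolute log2 fold change and a mean of at least 1 FPKM, with TDP43-NLS libraries on the left and GFP libraries on the right of each panel, and the mean and SD of 3 libraries beside the points. The genes were picked for large changes, so the points of both groups lie apart in all 12 panels, and Atp6v0d2, Ctsh and Tfeb show the widest gaps. Of all tested genes, 63.2% had groups that did not overlap in CPM.

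Of the 15 other hydrolases, all tested, 8 rose, 2 fell and 5 were not called. That is 66.7% called, against 57.5% of all tested genes (29.3% higher, 28.2% lower). The median log2 fold change of the 15 was 0.17. The one that fell most was Lipa (chr19:34469718-34504874, minus strand), the acid lipase that frees cholesterol and fatty acids from lipoprotein lipids. It gave 16.3, 16.2 and 15.9 FPKM in the TDP43-NLS libraries, against 27.6, 27.1 and 27.5 FPKM in the GFP libraries, and every TDP43-NLS library lay well below every GFP library (log2 fold change -0.73 ± 0.04 SE, adjusted p = 5.71e-09). Hexa, the alpha subunit of beta-hexosaminidase, also fell, with a log2 fold change of -0.29 ± 0.05 SE, adjusted p = 0.000274, but that is close to the median of -0.31 on its chromosome 9 and leaves 0.02 relative to it.

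Of the enzymes that rose, 4 did so by at least 0.5. Ppt1 (chr4:122730035-122752968, plus strand), which strips palmitate from proteins, gave 36.4, 37.0 and 38.3 FPKM in the TDP43-NLS libraries, against 25.4, 25.5 and 24.7 FPKM in the GFP libraries (log2 fold change 0.60 ± 0.04 SE, adjusted p = 6.91e-08). It overlaps Cap1 on the opposite strand, which had 40235 reads with TDP43-NLS and 29997 with GFP, and the counting is not stated to use strand, so reads of the pair cannot be told apart. Smpd1 (chr7:105203567-105207596, plus strand), acid sphingomyelinase, gave 3.74, 3.88 and 4.08 FPKM in the TDP43-NLS libraries, against 3.02, 2.19 and 2.43 FPKM in the GFP libraries, from 188, 233 and 240 reads with TDP43-NLS, against 155, 122 and 141 with GFP (log2 fold change 0.66 ± 0.11 SE, adjusted p = 0.000219). Neu1 (chr17:35150229-35154929, plus strand), the lysosomal sialidase, gave 46.8, 49.4 and 47.8 FPKM in the TDP43-NLS libraries, against 33.7, 34.7 and 33.6 FPKM in the GFP libraries (log2 fold change 0.53 ± 0.04 SE, adjusted p = 1.51e-07). Naglu (chr11:100960838-100968498, plus strand), a heparan sulfate-degrading glucosaminidase, gave 20.8, 21.1 and 19.95 FPKM in the TDP43-NLS libraries, against 13.7, 15.6 and 14.9 FPKM in the GFP libraries (log2 fold change 0.52 ± 0.06 SE, adjusted p = 4.69e-06). In these 4 the libraries of both groups did not overlap.

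Lgmn, the asparaginyl endopeptidase that processes cathepsins and the most abundant of the 15, averaged 529 ± 4.30 FPKM in the TDP43-NLS libraries and 458 ± 16.3 FPKM in the GFP libraries (SD, n = 3 each; log2 fold change 0.24 ± 0.04 SE, adjusted p = 0.000123); the median of its chromosome 12 was 0.17. Smaller rises were called for the mannosidase Man2b1 (0.20, adjusted p = 0.00114), the tripeptidase Tpp1 (0.17, adjusted p = 0.00515) and the glucosidase Gaa (0.17, adjusted p = 0.0268), whose libraries overlapped and whose call was kept in 6 of 13 alternatives. Not called were Glb1, Gla, Gusb, Arsb and Asah1, enzymes that act on galactosides, glucuronides, sulfated glycans and ceramide, with log2 fold changes of 0.06 to 0.10. Without GFP replicate 2, Asah1 (0.14, adjusted p = 0.00187) and Arsb (0.12, adjusted p = 0.0123) were called. Summed over the 15 genes the level was 1246 ± 7.88 FPKM in TDP43-NLS cells and 1171 ± 14.5 FPKM in GFP cells (SD, n = 3 each), with no overlap. Lgmn took 42.5% of this sum in TDP43-NLS cells and 39.1% in GFP cells. The gap in Lgmn alone was nearly as wide as that in the sum, while Hexa and Lipa went the other way.

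The soluble cofactors moved apart. Psap (chr10:60113449-60138376, plus strand), whose protein is cut into saposins that present sphingolipids to their hydrolases, gave 726, 697 and 698 FPKM in the TDP43-NLS libraries, against 945, 979 and 954 FPKM in the GFP libraries (log2 fold change -0.40 ± 0.04 SE, adjusted p = 8.84e-07). Npc2 (chr12:84801336-84819926, minus strand), which carries cholesterol out of the lumen to NPC1, gave 159, 161 and 165 FPKM in the TDP43-NLS libraries, against 116, 105 and 115 FPKM in the GFP libraries (log2 fold change 0.56 ± 0.05 SE, adjusted p = 2.53e-07). Both sets of libraries were far apart for each gene. On its chromosome 12 Npc2 remained 0.39 above the median.

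Among 8 membrane proteins, 3 rose, 3 fell and 2 were not called. That is 75.0% called, against 57.5% of all tested genes (29.3% higher, 28.2% lower). Lamp1 and Cd68, the most abundant of the 8, changed least. Laptm5 (chr4:130640436-130663452, plus strand), a lysosomal protein of blood-lineage cells, fell most, with 131, 132 and 129 FPKM in the TDP43-NLS libraries, against 197, 216 and 201 FPKM in the GFP libraries (log2 fold change -0.61 ± 0.04 SE, adjusted p = 5.63e-08), without overlap. Cd68, a heavily glycosylated protein of macrophage lysosomes and the most abundant member of its role, gave 659, 653 and 648 FPKM in the TDP43-NLS libraries, against 698, 724 and 720.3 FPKM in the GFP libraries (log2 fold change -0.09 ± 0.04 SE, adjusted p = 0.0471), a call that ended under 9 of 13 alternatives, with an adjusted p between 0.0177 and 0.191. Lamp1, a main glycoprotein of the lysosomal membrane, gave 286, 280.2 and 282 FPKM in the TDP43-NLS libraries, against 296, 299 and 296 FPKM in the GFP libraries (log2 fold change -0.03 ± 0.04 SE, adjusted p = 0.436). Scarb2, the receptor that brings glucocerebrosidase to lysosomes, was called lower (log2 fold change -0.19 ± 0.06 SE, adjusted p = 0.0181). That call was kept in 7 of 13 alternatives, with an adjusted p up to 0.1, and was lost when any library other than GFP replicate 2 was left out and with limma without a filter.

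The 3 membrane proteins that rose, Lamp2, Npc1 and Mcoln1, did so by less than 0.5. Lamp2, which also serves chaperone-mediated autophagy, averaged 40.9 ± 1.34 FPKM in the TDP43-NLS libraries and 34.2 ± 1.35 FPKM in the GFP libraries (SD, n = 3 each; log2 fold change 0.30 ± 0.04 SE, adjusted p = 7.51e-05). Npc1, the membrane partner of NPC2, averaged 10.9 ± 0.140 FPKM in the TDP43-NLS libraries and 9.10 ± 0.411 FPKM in the GFP libraries (SD, n = 3 each; log2 fold change 0.30 ± 0.05 SE, adjusted p = 7.75e-05); it overlaps Rmc1 on the opposite strand, with 3140 reads with TDP43-NLS and 2068 with GFP. Mcoln1, the calcium channel TRPML1, had a log2 fold change of 0.21 ± 0.05 SE, adjusted p = 0.00236. Cd63, a tetraspanin of late endosomes, was not called and gave 133, 145 and 140.3 FPKM in the TDP43-NLS libraries, against 150.2, 103 and 149 FPKM in the GFP libraries; GFP replicate 2 was low and the groups overlapped (log2 fold change 0.10 ± 0.11 SE, adjusted p = 0.465). Without GFP replicate 2 its log2 fold change turned to -0.06 (adjusted p = 0.11). A transcribed processed pseudogene of Cd63 was counted at 42.1 FPKM with TDP43-NLS and 41.2 FPKM with GFP, so the counts of Cd63 are uncertain. The summed level of the 8 genes was 1276 ± 4.78 FPKM in TDP43-NLS cells and 1412 ± 15.0 FPKM in GFP cells (SD, n = 3 each), and Laptm5 and Cd68 held most of the gap.

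In the proton pump the widely expressed subunits changed little and 1 alternative subunit fell to below 1 FPKM. Of 21 pump genes, 18 were tested, 4 rose, 4 fell and 10 were not called, or 44.4% called, against 57.5% of all tested genes. Leaving out 1 library moved these counts to between 2 and 4 higher and between 4 and 7 lower, with 2 higher without TDP43-NLS replicate 1 or 3 and 7 lower without GFP replicate 2. The gene that fell furthest was Atp6v0d2 (chr4:19876841-19922605, minus strand), the d2 form of the V0 subunit that joins rotor and V1, known from osteoclasts and macrophages. It gave 40, 28 and 41 reads with TDP43-NLS, against 461, 571 and 564 reads with GFP. Its levels were 0.978, 0.573 and 0.857 FPKM in the TDP43-NLS libraries, against 11.05, 12.6 and 11.96 FPKM in the GFP libraries, a log2 fold change of -3.86 ± 0.13 SE, adjusted p = 4.17e-11, without overlap between the groups. Atp6v0d1, its ubiquitous paralogue, gave 175, 169 and 169 FPKM in the TDP43-NLS libraries, against 182, 186 and 180.2 FPKM in the GFP libraries (log2 fold change -0.06 ± 0.04 SE, adjusted p = 0.227).

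Within each library the ratio of Atp6v0d1 to Atp6v0d2 was 179, 295 and 198 in the TDP43-NLS libraries, against 16.4, 14.8 and 15.1 in the GFP libraries. The d2 gene was 0.465% of the pair's FPKM in TDP43-NLS cells and 6.10% in GFP cells, and the difference in log2 ratio was 3.81 (exact permutation test, two-sided, p = 0.1, the smallest that 3 against 3 allows). Atp6v0a1, a proton-channel subunit, gave 39.2, 39.3 and 37.9 FPKM in the TDP43-NLS libraries, against 29.997, 32.0 and 29.5 FPKM in the GFP libraries (log2 fold change 0.38 ± 0.04 SE, adjusted p = 5.27e-06). Its paralogue Atp6v0a2 gave 7.99, 7.85 and 7.58 FPKM in the TDP43-NLS libraries, against 7.59, 7.61 and 7.76 FPKM in the GFP libraries (log2 fold change 0.06 ± 0.05 SE, adjusted p = 0.281). Their ratio was 4.90, 5.00 and 5.00 in the TDP43-NLS libraries, against 3.95, 4.21 and 3.81 in the GFP libraries, a difference of 0.32 in log2 ratio (exact permutation test, p = 0.1). Tcirg1, which encodes the a3 form of the same subunit and was added after its values were seen, averaged 77.0 ± 4.50 FPKM in TDP43-NLS cells and 93.1 ± 3.98 FPKM in GFP cells (SD, n = 3 each; log2 fold change -0.24, adjusted p = 0.00109). Atp6v1g1 and Atp6v1g2, alternative stalk subunits of V1, had ratios of 66.2, 55.3 and 62.0 in the TDP43-NLS libraries, against 75.3, 66.2 and 96.3 in the GFP libraries, a difference of -0.36 (exact permutation test, p = 0.1). The highest TDP43-NLS ratio and the lowest GFP ratio of that pair were nearly equal. Atp6v1g2, the neuronal form, was low, with 1.402, 1.84 and 1.61 FPKM in the TDP43-NLS libraries, against 1.504, 1.48 and 1.19 FPKM in the GFP libraries (log2 fold change 0.26 ± 0.15 SE, adjusted p = 0.163) and overlaps Nfkbil1 on the opposite strand. Atp6v1g1 gave 92.8, 102 and 99.6 FPKM in the TDP43-NLS libraries, against 113, 98.2 and 115 FPKM in the GFP libraries (log2 fold change -0.11 ± 0.06 SE, adjusted p = 0.129; without GFP replicate 2, -0.18 with an adjusted p of 0.000293).

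**Figure D3:**
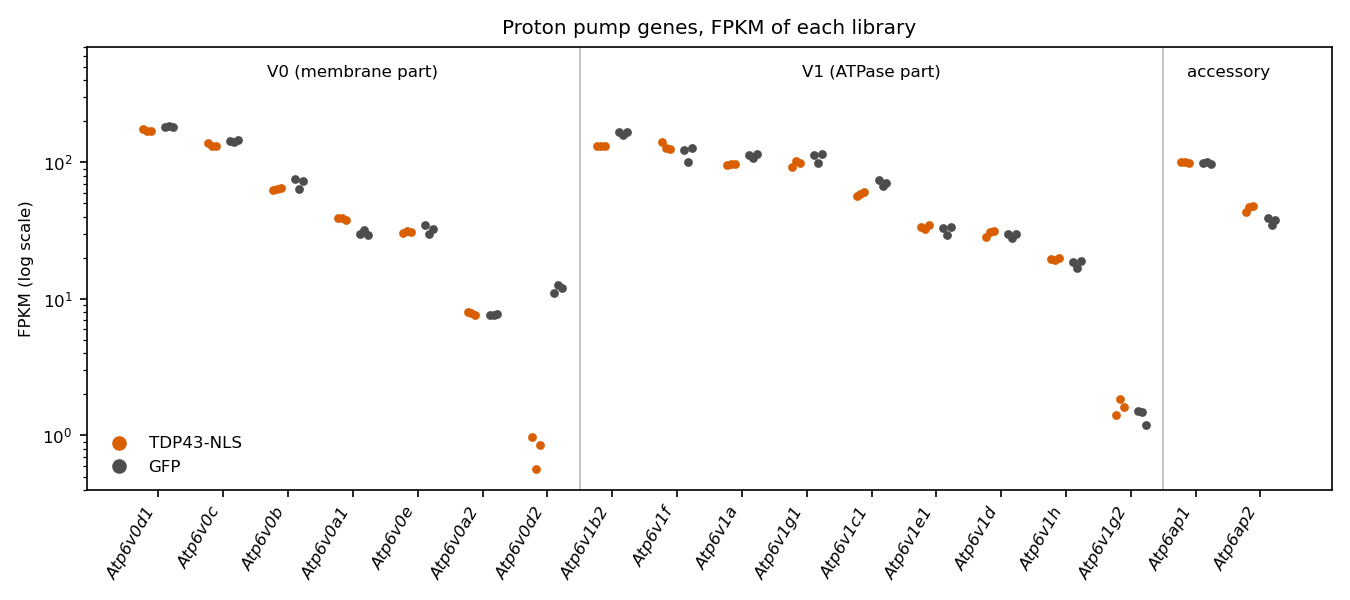
FPKM of the pump genes by library, on a log axis, with V0, V1 and accessory genes grouped and TDP43-NLS libraries drawn left of GFP libraries. Atp6v0d2 is the gene whose groups are furthest apart, and in the other tested genes the groups lie close together.

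The other V0 genes tested were not called. Atp6v0c, the proteolipid of the rotor ring, had 139, 131 and 133 FPKM in the TDP43-NLS libraries, against 144, 141 and 145 FPKM in the GFP libraries (log2 fold change -0.06 ± 0.04 SE, adjusted p = 0.238), and a processed pseudogene of it was counted at 23.7 FPKM with TDP43-NLS and 26.9 FPKM with GFP, so its counts are uncertain. Atp6v0b and Atp6v0e, further membrane subunits, had log2 fold changes of -0.10 and -0.04 (adjusted p = 0.14 and 0.558). Both were called lower without GFP replicate 2 (-0.17, adjusted p = 0.000284, and -0.10, adjusted p = 0.046).

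In V1, the catalytic and regulatory core and a stalk gene fell, while Atp6v1f and Atp6v1h rose. Atp6v1b2, the nucleotide-binding B subunit, gave 132, 132 and 132 FPKM in the TDP43-NLS libraries, against 167, 158 and 167 FPKM in the GFP libraries, with no overlap (log2 fold change -0.27 ± 0.04 SE, adjusted p = 5.02e-05). Atp6v1a, the catalytic A subunit, had a log2 fold change of -0.19 ± 0.04 SE, adjusted p = 0.00109, and Atp6v1c1, which holds V1 to V0, one of -0.23 ± 0.05 SE, adjusted p = 0.000863. Atp6v1a lies on chromosome 16, whose median was -0.21, and was 0.03 above it. Atp6v1h, a regulator of coupling, was called higher at 0.14 (adjusted p = 0.0265) and Atp6v1f, a rotor subunit, at 0.20 (adjusted p = 0.0413), although the FPKM of Atp6v1f overlapped. The call of Atp6v1h was kept in 7 of 13 alternatives (adjusted p up to 0.203) and that of Atp6v1f in 5 of 13 (up to 0.314). Both were lost with DESeq2's Wald test, with limma and without TDP43-NLS replicate 1 or 3. Leaving out GFP replicate 2 ended the call of Atp6v1f (0.10, adjusted p = 0.0586). Atp6v1d and Atp6v1e1, parts of the rotor and stalk, were not called at 0.09 and 0.10.

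Of the accessory proteins, Atp6ap2, the prorenin receptor that helps assemble the pump, averaged 46.0 ± 2.63 FPKM in the TDP43-NLS libraries and 37.3 ± 2.16 FPKM in the GFP libraries (SD, n = 3 each; log2 fold change 0.34 ± 0.06 SE, adjusted p = 0.000144), and Atp6ap1, its partner in assembly, had a log2 fold change of 0.04 (adjusted p = 0.382). The summed V1 level was 601, 601 and 601 FPKM in the TDP43-NLS libraries, against 675, 608 and 680 FPKM in the GFP libraries, so GFP replicate 2 was close to the TDP43-NLS libraries. The summed V0 level was 448 ± 6.87 FPKM in TDP43-NLS cells and 479 ± 5.75 FPKM in GFP cells (SD, n = 3 each).

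Position in the genome went with some of the smaller changes. The median log2 fold change on chromosome 9 was -0.31, with 418 genes lower and 90 higher among 712 tested, on chromosome 16 it was -0.21, and on chromosome 12 it was 0.17; the part of this in the members' changes was not tested. Relative to the median of their own chromosome, 33 of the 35 called members kept their sign, and the exceptions were Hexa and Atp6v1a. Neighbouring members moved alike in some cases: Naglu and Atp6v0a1 lie 6293 bases apart and both rose, and Smpd1 and Tpp1 lie 186422 bases apart and both rose.

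**Figure D4:**
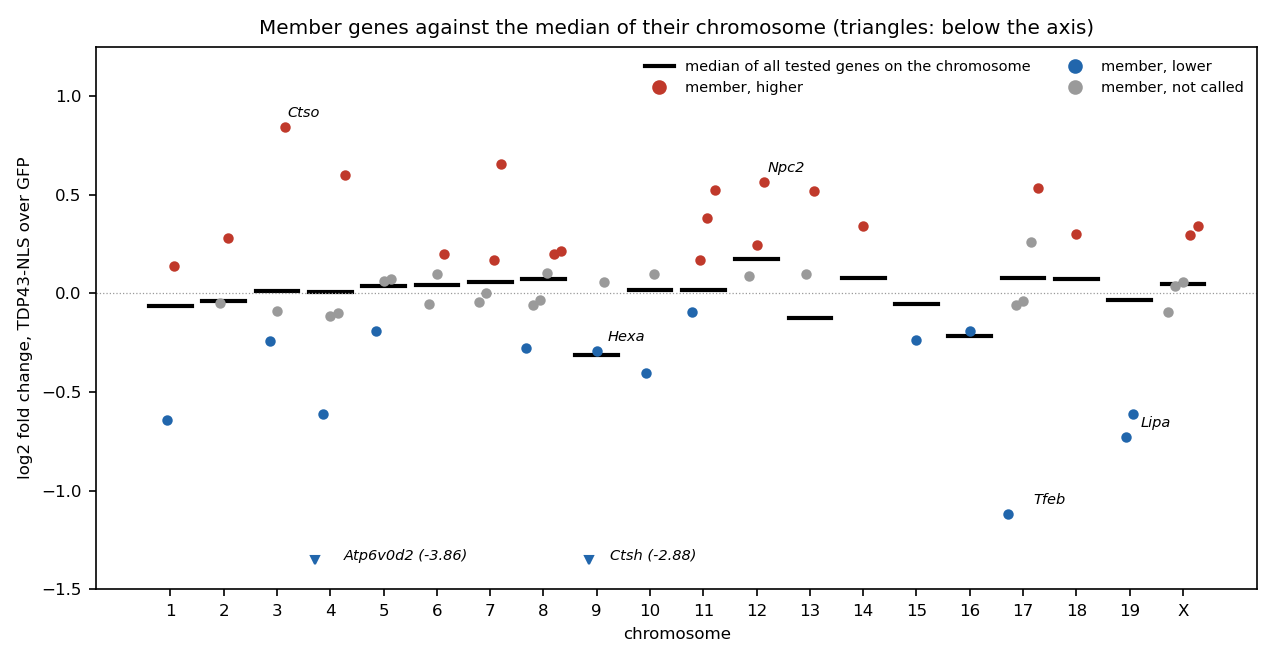
Log2 fold change of each tested member by chromosome, with the median of all tested genes of that chromosome as a short bar. On chromosome 9 Hexa lies at the median of -0.31, and triangles mark Atp6v0d2 and Ctsh, which lie below the plotted range.

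Beyond the members, other lysosomal genes also moved both ways. Of 40 tested hydrolases outside the members, 22 rose and 10 fell, or 80.0% called against 57.5% of all tested genes (29.3% higher, 28.2% lower), with a median log2 fold change of 0.14. Those with the smallest adjusted p were Ggh, a folate hydrolase (2.05, adjusted p = 1.1e-08), and Hpse, heparanase (2.02, adjusted p = 9.9e-08), both higher, and Dpp7, a dipeptidase (-0.53, adjusted p = 1.53e-07), which was lower. Of 37 tested membrane proteins and transporters, 16 rose and 10 fell, or 70.3% called, with a median of 0.09. Abcd4, a cobalamin transporter (1.69, adjusted p = 1.8e-11), and Slc15a3, a peptide and histidine transporter (1.64, adjusted p = 5e-11), rose, and Slc37a2 (-0.70, adjusted p = 5.06e-08) and Slc29a3 (-0.72, adjusted p = 9.37e-08), transporters of sugar phosphates and nucleosides, fell. By Gene Ontology, 281 tested genes annotated to the lysosome are not members, and 117 rose and 70 fell, 66.5% called, with a median of 0.09.

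Of 28 tested genes that sort enzymes to lysosomes, 8 rose and 9 fell, or 60.7% called, close to the 57.5% of all tested genes. Igf2r, the mannose 6-phosphate receptor that carries new enzymes to lysosomes, averaged 24.3 ± 1.153 FPKM in TDP43-NLS cells and 6.75 ± 0.146 FPKM in GFP cells (SD, n = 3 each; log2 fold change 1.89, adjusted p = 3e-12). The tethering-complex gene Vps39 rose (0.39, adjusted p = 1.28e-05), and Vps11 (-0.48, adjusted p = 5.22e-07) and Vps33a (-0.37, adjusted p = 7.3e-06), of the same complexes, fell. Of 31 tested genes of mTORC1, TFEB control and pump assembly, 4 rose and 9 fell, or 41.9% called. Rragd, a Rag GTPase that holds TFEB at the lysosome and is also known as its target, averaged 0.664 ± 0.114 FPKM in TDP43-NLS cells and 3.94 ± 0.290 FPKM in GFP cells (SD, n = 3 each; log2 fold change -2.52, adjusted p = 1.15e-09). Ccdc115, a V-ATPase assembly factor, fell (-0.58, adjusted p = 5.71e-07), and Rraga (0.21, adjusted p = 0.00237) and Wdr7 (0.28, adjusted p = 0.000601) rose.

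Among 7 tested inhibitors of cathepsins and related proteases, 2 rose and 3 fell. That is 71.4% called, against 57.5% of all tested genes (29.3% higher, 28.2% lower). Serpinb1a, an inhibitor of neutrophil serine proteases and cathepsin G, averaged 1.10 ± 0.224 FPKM in TDP43-NLS cells and 19.1 ± 0.659 FPKM in GFP cells (log2 fold change -4.07, adjusted p = 3e-12). Cst7, cystatin F, averaged 19.7 ± 0.401 FPKM in TDP43-NLS cells and 63.4 ± 1.56 FPKM in GFP cells (log2 fold change -1.65, adjusted p = 4.7e-11). Csta2, a stefin, was higher (log2 fold change 3.80, adjusted p = 1.79e-09), as was Cstb (0.16, adjusted p = 0.0114). All SDs are over 3 libraries each.

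Because Atp6v0d2 and Ctsk are osteoclast genes, other genes of that cell type were read beside them. Of 12 found, 10 were tested, 6 rose and 3 fell, or 90.0% called against 57.5% of all tested genes, with a median of 0.995 and a summed level of 137 to 149 FPKM in TDP43-NLS cells and 130 to 144 FPKM in GFP cells. Itgb3 (2.90, adjusted p = 1.19e-08) and Mmp9 (2.43, adjusted p = 5.37e-09) rose and Tnfrsf11a, the receptor for RANKL, fell (-0.35, adjusted p = 0.000609). The defining markers Acp5 and Oscar averaged 0.0480 and 0.0120 FPKM with TDP43-NLS, against 0.0682 and 0.0560 FPKM with GFP, near 0. The part of osteoclast-like expression in the Atp6v0d2 and Ctsk results was not tested.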

How the data were processed

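RNA-seq of 6 BV2 libraries was analysed, 3 per group. Per the submitters' processing notes, reads were handled with HISAT2 2.1.0, Bowtie2 2.2.3 and HTSeq 0.6.0 on GRCm39; options, annotation and strand setting: not given in the sources used here. The authors deposited read counts per gene and, in an annotated table, FPKM per gene, and each FPKM was the count rescaled by library total and a gene's length. Members and gene lists were chosen with earlier results of these data known.

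From the counts, genes passing filterByExpr (minimum count 10, minimum total 15; 13199 genes) were fitted with edgeR 4.0.16 in R 4.3.3 (TMM scaling, quasi-likelihood test, two-sided, Benjamini-Hochberg adjustment over all tested genes, threshold 0.05). Fold changes are TDP43-NLS over GFP. Alternatives used DESeq2 1.42.0, its size factors, no filter, a test against a log2 fold change of 0.5 (glmTreat) and a replicate block. Members by chromosome and each library left out were further alternatives. Another was limma 3.58.1 on log2(FPKM + 1) and log2(FPKM + 0.1) with a mean FPKM minimum of 0.5. Without that minimum, limma was run on log2(FPKM + 1) only. Paralogue ratios used FPKM + 0.01. Counting error is small at these totals of 15062131 to 18005592 reads, and read counts without molecular identifiers are not independent molecules. Named genes are the transcription factors, called members past 0.5 (log2), the 3 most abundant members of each role and subunits with several tested genes, plus, of other lists, the 2 called genes each way with the smallest adjusted p; further members are given in short, and 1 gene that this rule names is not reported here. Only the edgeR test against 0 was checked on simulated counts, which had the same dispersion for every gene and few changed genes.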

Additional observations from a re-analysis of the deposited data

How the results depend on the processing

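Of the 35 members called, 27 were called under every alternative that tested them, leaving aside the test against a log2 fold change of 0.5; Atp6v1f, Atp6v1h, Cd68, Ctse, Ctsk, Gaa, Scarb2 and Tpp1 lost the call under at least 1. The test against 0.5 called 7 members: Atp6v0d2, Ctsh, Tfeb, Lipa and Laptm5 lower, Ctso and Ppt1 higher (2 hydrolases each way, 1 membrane protein and 1 pump gene lower, 0 membrane proteins and 0 pump genes higher, 0 cofactors). Over the 6 other gene lists together, cathepsin inhibitors and osteoclast genes included, it called 16 higher and 7 lower, against 58 and 44 in the edgeR test against 0. Those lists held 40, 37, 28, 31, 7 and 10 tested genes. Of all tested genes, the test against 0.5 called 9.25% higher and 5.64% lower, and the test against 0 called 29.3% and 28.2%. Across settings the pump genes called higher were 2 with DESeq2's Wald test and 2 with limma on log2(FPKM + 1), log2(FPKM + 0.1) or without a filter, against 4. Membrane proteins called lower were 1 with limma without a filter, against 3. Without members on chromosomes 9, 12, 16 and 17, 0 cofactors were higher and 0 transcription factors lower, since Npc2 and Tfeb lie there. Relative to the median of its chromosome, Tfeb was at -1.20 (chromosome 17, median 0.08) and Npc2 at 0.39. Leaving out each library in turn, pump genes called lower ranged from 4 to 7, pump genes called higher from 2 to 4, and membrane proteins called lower from 1 to 3; the 7 was without GFP replicate 2, when members called were 21 higher and 19 lower. Deviations of same-numbered libraries correlated at -0.016, -0.011 and 0.0019. These values show no sign of pairing, but with 3 libraries a group they cannot establish that there is none. With the replicate block 20 members were higher and 14 lower, with 34 of the 35 calls shared and Cd68 lost. No called member changed direction under another test, scaling or left-out library, though Hexa and Atp6v1a did relative to their chromosome's median (0.02 and 0.03). Of the members not called, 3 took both signs over the alternatives: Cd63 (-0.06 to 0.19), Ctsd (-0.04 to 0.03) and Atp6v0e (-0.10 to 0.02). Of 433 values of named members under alternatives, the test against 0.5 included, 28 lost and 2 gained the call. Values relative to the chromosome's median are among the 433 and carry no test, and 11 of them shifted by at least the SD between libraries. The rest kept their direction and, where tested, their side of the threshold, and the cause was not tested. Across the alternatives 26.9% to 61.3% of all tested genes were called, leaving aside the test against 0.5. These shares have unlike denominators. The lowest was 6742 of 25032 genes, with limma without a filter, and the highest 8251 of 13450, without GFP replicate 2.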
